A study of Mus musculus with 2 samples.

Results

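Lhx6 interneurons are inhibitory neurons that carry the homeodomain factor Lhx6, and 358 of them were found among 12846 kept cells from 2 single-cell libraries of newborn mouse telencephalon. Of these, 131 were among 6766 cells of the WT library and 227 among 6080 cells of the cKO library. Members were chosen by their own unique molecular identifier (UMI) counts, where 1 UMI stands for 1 captured RNA molecule. A member had at least 1 UMI of Gad1 or Gad2, at least 1 of Lhx6, and at least 3 of Lhx6, Sst, Nxph1 and Maf together. It also had fewer than 3 UMIs of Adarb2, Prox1, Npas1 and Htr3a together, at most 1 of Neurod2 and Neurod6, 0 of Isl1, and fewer than 3 of Mki67, Top2a and Cenpf. These thresholds remove interneurons of the caudal ganglionic eminence (CGE), projection neurons, Isl1 striatal-type cells and dividing cells.

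Both libraries came from C57BL/6 mice at P0, the day of birth. The labels give the genotypes as WT and STINGf/f;Nestin-Cre, the latter called cKO here, while the study's text names its control mice STINGfl/fl. In cKO mice, Cre driven by Nestin in the neural lineage deletes the floxed STING gene (Tmem173), so cells of other lineages, such as microglia, keep it. The labels call the tissue telencephalic and the study's text calls it cerebral cortex, and the number of animals behind each library is not given in the sources used here. With 1 library per genotype, no difference below has a replicate check, no test was run, and intervals are 95% and cover counting error only.

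Lhx6 interneurons are born in the medial ganglionic eminence (MGE) of the ventral forebrain, migrate into cortex and striatum, and mature into somatostatin and parvalbumin interneurons. Nkx2-1 starts the programme and turns on Lhx6, and Sox6, Satb1 and Maf act after it, while cells bound for cortex switch Nkx2-1 off. Somatostatin (Sst) and neuropeptide Y (Npy) appear before birth, whereas parvalbumin (Pvalb) appears after it.

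The 2 libraries differed in ways that touch every comparison. They held 69554624 (WT) and 67448785 (cKO) UMIs over 10715 and 9198 barcodes, and the members' median depths were 5329 (WT) and 6049 (cKO) UMIs, with 19 barcodes in common between libraries but 0 among members. Xist, the RNA of the inactive X chromosome, had 0 UMIs in WT members and 2895 in cKO members, and 4 Y-linked genes had 174 and 0. The sex of the mice and the genotype therefore cannot be told apart. The deleted gene, Tmem173 (ENSMUSG00000024349), had 0 UMIs in the members of both libraries, where the limit that a count of 0 allows (3 counts) was 3.26 and 1.83 CPM (the UMIs of a gene per 1000000 UMIs of the summed cells). In all kept cells it had 132 UMIs (2.26 CPM) in WT and 18 (0.316 CPM) in cKO. Loss of the gene in the interneurons themselves was thus not detectable at this depth.

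The label was checked against the marker genes, whose values chose the cells and are a description. Lhx6 (ENSMUSG00000026890, chr2:36081953-36105408 in GRCm38) was present in each member by rule, at 421 CPM in WT and 375 CPM in cKO. Nxph1, a secreted ligand of neurexins, was found in 98 of 131 WT and 189 of 227 cKO members. Maf, a transcription factor of this lineage, was found in 109 and 204 members. Sst was found in 39 and 74. The sum over the 4 markers had a median of 11 UMIs per cell in each library. Pvalb had 0 UMIs in both.

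Few members lay at the threshold of the marker sum, and more at that of Lhx6. The sum over the 4 markers was exactly 3 in 9 WT and 8 cKO members, and 8 WT and 5 cKO cells that met each other condition were just outside at 2. The Lhx6 condition was met by a single UMI in 37 WT and 72 cKO members, and 79 WT and 68 cKO cells had every other feature but 0 Lhx6 UMIs. On the CGE side, 4 WT and 12 cKO members had 2 UMIs, and 7 cells in each library were left out at 3.

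Lhx6 interneurons were a larger share of the cKO library. They made up 1.94% (1.62 to 2.29) of kept WT cells and 3.73% (3.27 to 4.24) of kept cKO cells, a difference of 1.80 points (1.21 to 2.39). A second base was the cells with Gad1 or Gad2, at most 1 UMI of Neurod2 and Neurod6, and fewer than 3 of Mki67, Top2a and Cenpf. Among these cells the shares were 8.40% of 1559 WT cells and 16.4% of 1380 cKO cells, a difference of 8.05 points (5.62 to 10.5). The share was higher in cKO under each of the alternative choices of cells given in the closing section.

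Other classes also differed, in both directions. CGE-type cells had Gad1 or Gad2, 0 Lhx6 and at least 3 UMIs of Adarb2, Prox1, Npas1 and Htr3a together. They also had fewer than 3 UMIs of Lhx6, Sst, Nxph1 and Maf together and 0 of Isl1. Isl1 GABAergic cells had Gad1 or Gad2, Isl1, 0 Lhx6 and fewer than 3 UMIs of Adarb2, Prox1, Npas1 and Htr3a together. Both of these classes had at most 1 UMI of Neurod2 and Neurod6. Projection-type cells had at least 3 UMIs of Neurod2 and Neurod6 and 0 of Gad1, Gad2, Lhx6 and Isl1. Each class had fewer than 3 UMIs of Mki67, Top2a and Cenpf. CGE-type interneurons were 1.02% of WT and 1.56% of cKO cells, a difference of 0.543 points (0.142 to 0.954). Isl1 GABAergic cells, which carry striatal markers, were 2.04% of WT and 1.18% of cKO cells, a difference of -0.855 points (-1.30 to -0.411). Projection-type cells were 34.04% and 43.1%. Whether dissection, dissociation or capture set these shares was not tested, and in 2 libraries it cannot be told apart from genotype.

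**Figure D1:**
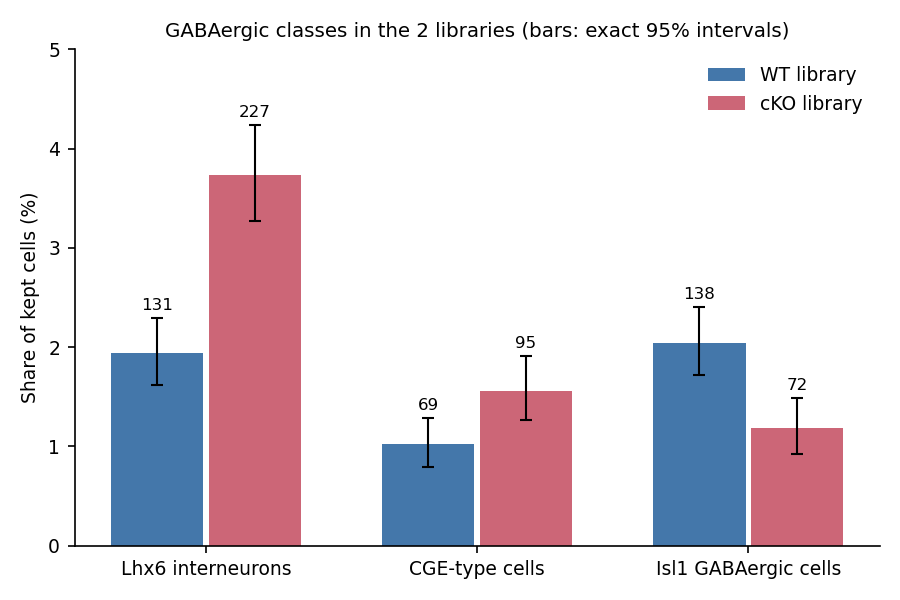
Share of kept cells (%) in the WT and cKO libraries for 3 GABAergic classes, with exact 95% intervals of counting error as bars and cell numbers above them. Lhx6 interneurons stood at 1.94% and 3.73%, CGE-type cells at 1.02% and 1.56%, and Isl1 GABAergic cells at 2.04% and 1.18%.

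The promoters of the main peptide genes are shown because Sst and Npy are the peptide genes by whose levels the cells are described next. Each sequence runs 5′ to 3′ on the strand of the gene, from 250 bases before to 50 bases after the RefSeq start (GRCm38.p6). Capitals mark the cyclic AMP response element TGACGTCA, the site through which CREB acts on the Sst gene.

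Sst, chr16:23890795-23891094, minus strand: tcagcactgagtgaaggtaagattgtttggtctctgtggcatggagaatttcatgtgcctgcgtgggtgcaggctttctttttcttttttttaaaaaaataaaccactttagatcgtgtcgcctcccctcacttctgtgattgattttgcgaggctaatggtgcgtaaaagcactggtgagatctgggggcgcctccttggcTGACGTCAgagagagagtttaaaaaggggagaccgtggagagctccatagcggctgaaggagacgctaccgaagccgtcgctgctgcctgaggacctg

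Npy, chr6:49822460-49822759, plus strand: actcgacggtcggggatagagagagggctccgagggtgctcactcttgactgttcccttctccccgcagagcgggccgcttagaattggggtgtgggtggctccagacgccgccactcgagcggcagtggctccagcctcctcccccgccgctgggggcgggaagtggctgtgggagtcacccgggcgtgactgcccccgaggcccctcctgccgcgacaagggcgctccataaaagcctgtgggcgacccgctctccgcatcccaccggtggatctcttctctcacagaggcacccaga

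The element began 48 bases upstream of the Sst start and had no match in the Npy or Cort window. It was searched on both strands (it is its own reverse complement), and 1.79% of 32851 RefSeq promoters of that length hold it. The homeodomain core TAATTA, found in 5.29% of promoters, had a match in the Cort window 85 bases upstream of the start. The E-box CAGCTG, found in 16.3%, had matches in 1 of 3 Lhx6 windows, 131 and 40 bases upstream. A match is a run of letters and was not tested as a binding site.

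Beyond the genes that chose them, the cells were set apart from CGE-type interneurons by a small share of genes, and no gene group was tested. Because the rule contrasts these classes, and CGE-type cells were capped for Lhx6, Sst, Nxph1 and Maf, the values are a description. Npy went with Sst among the members, so its contrast may be partly built in by that cap. Counting genes at least 2-fold apart on CPM + 10 in both libraries, 40 of 3161 genes were higher in Lhx6 interneurons (1.27%) and 35 were higher in CGE-type cells (1.11%). Npy stood at 5976 CPM (WT) and 2217 CPM (cKO) in Lhx6 interneurons and at 18.1 and 13.0 CPM in CGE-type cells. Ackr3, an atypical receptor that scavenges the chemokine Cxcl12 and guides migrating interneurons, stood at 123 and 160.0 CPM against 2.01 and 0 CPM.

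Igfbp4, Klf5, Cux2, Cort, Efna5, the AMPA receptor subunit gene Gria1, Mef2c, Lhx8 and Crabp1 were also among the genes with the highest ratios, though 44 of the 54 cKO Lhx8 UMIs lay in 1 cell. Gria1 stood at 299.5 and 309 CPM in Lhx6 interneurons and at 62.5 and 26.02 CPM in CGE-type cells. Mef2c, an activity-regulated transcription factor, stood at 1542 and 1821 CPM against 375 and 279 CPM. In the other direction, the chemokine gene Cxcl14 stood at 529.9 and 147 CPM in CGE-type cells and at 13.0 and 4.87 CPM in Lhx6 interneurons. Nr2f2 (COUP-TFII) stood at 300.2 and 528 CPM against 16.28 and 46.2 CPM. The cannabinoid receptor gene Cnr1 stood at 895 and 433 CPM against 107 and 36.5 CPM. Islr2, Ap1s2, Ccnd2, Serpine2, Synpr, Nr2f1, Cck, Pik3r1 and Fabp7 were the others.

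Against Isl1 GABAergic cells, 81 of 3586 genes were at least 2-fold higher in both libraries (2.26%) and 66 were lower (1.84%). Among the highest ratios were those of Npy, Ackr3, Sp9, Zeb2, Rpp25, Tcf4 and Zfp536. Zeb2, which acts after Nkx2-1 in cells bound for cortex, stood at 502 and 504 CPM against 60.5 and 27.0 CPM. The striatal genes Ebf1, Ppp1r1b (DARPP-32) and Foxp2 were on the other side, with Ebf1 at 637 and 761 CPM in Isl1 cells and at 7.60 and 0 CPM in Lhx6 interneurons.

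Against projection-type cells, 149 of 10710 genes were higher (1.39%) and 174 lower (1.62%). GABAergic identity genes were among them, with Dlx2 at 317 and 493 CPM against 4.63 and 3.29 CPM. Slc32a1, the vesicular GABA transporter, stood at 221 and 189 CPM against 2.62 and 0.708 CPM. The cortical factors Tbr1 and Bhlhe22 stood between 4.87 and 25.0 CPM in Lhx6 interneurons and between 118 and 527 CPM in projection-type cells.

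**Figure D2:**
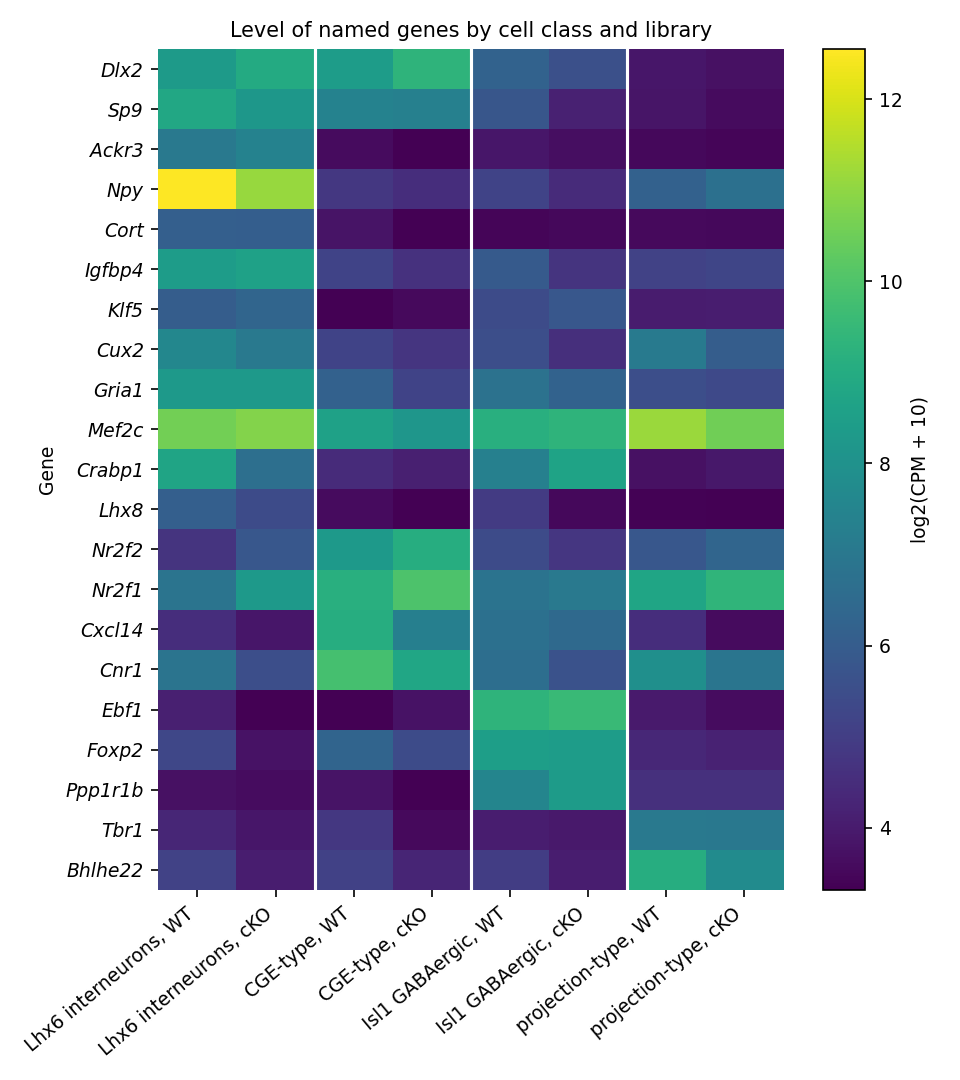
Level of named genes as log2(CPM + 10), coloured from dark (low) to yellow (high), in 4 cell classes of the WT and cKO libraries. Npy is brightest in Lhx6 interneurons, at 5976 CPM (WT) and 2217 CPM (cKO), Nr2f2 and Cxcl14 in CGE-type cells, Ebf1 in Isl1 GABAergic cells and Bhlhe22 in projection-type cells.

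The cells were not uniform, and Sst split them. At least 2 Sst UMIs were found in 32 of 131 WT members (24.4%, 17.3 to 32.7) and in 64 of 227 cKO members (28.2%, 22.4 to 34.5). Sst was at 0 in 92 and 153 members. Median depth was higher in the Sst-positive members, at 7592 and 8644 UMIs, than in the Sst-zero members, at 4861 and 5327 UMIs. After thinning each cell to 3000 UMIs, which left out 9 WT and 21 cKO members, 24.6% of WT and 27.7% of cKO members had a Sst UMI. In projection-type cells, which should lack it, the thinned shares were 2.75% and 1.08%, and before thinning 7.51% and 4.00%.

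Npy went with Sst. Of 3250 genes, 39 were at least 2-fold higher in the Sst-positive members in both libraries (1.2%) and 24 were lower (0.738%). Npy stood at 18036 CPM (17558 to 18523) in Sst-positive and 145 CPM (116 to 180) in Sst-zero WT members. In cKO the levels were 5313 CPM (5137 to 5494) and 200 CPM (173 to 231). At least 2 UMIs of both peptides were found in 26 WT and 43 cKO members. Another 18 WT and 37 cKO members had at least 2 UMIs of Npy and fewer than 2 of Sst.

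The other genes highest in Sst-positive cells were Pcp4, Fam46a, 1700086L19Rik, the NMDA receptor subunit gene Grin3a, RP23-407N2.2, Klf5 and the A-type potassium channel gene Kcnd2. Pcp4, a calmodulin regulator, stood at 1407 CPM against 62.9 CPM in WT and at 273 CPM against 9.59 CPM in cKO. Fam46a had 55 WT and 58 cKO UMIs in Sst-positive members and 0 in Sst-zero members. Grin3a stood at 187 against 14.0 CPM in WT and 121 against 6.39 CPM in cKO.

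Crabp1, Nfib, Nfix, Etv1, Id2, Pbx3, Id3 and Ccnd2 had the highest ratios on the Sst-zero side, though some lay in few of its 92 WT and 153 cKO cells. Nfix was found in 69 and 82 of them, but Crabp1 in 12 and 7, Pbx3 in 14 and 15, and Ccnd2 in 14 and 5. Nfib and Nfix are nuclear factor I genes of neuronal maturation. Nfib stood at 785 CPM in Sst-zero and 83.3 CPM in Sst-positive WT members, and at 413 and 27.9 CPM in cKO. Etv1 had 107 of its WT UMIs in Sst-zero members and 1 in Sst-positive members, and in cKO 52 and 2. Crabp1, which binds retinoic acid, had 355 and 133 UMIs in Sst-zero members and 0 in Sst-positive members of both libraries.

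**Figure D3:**
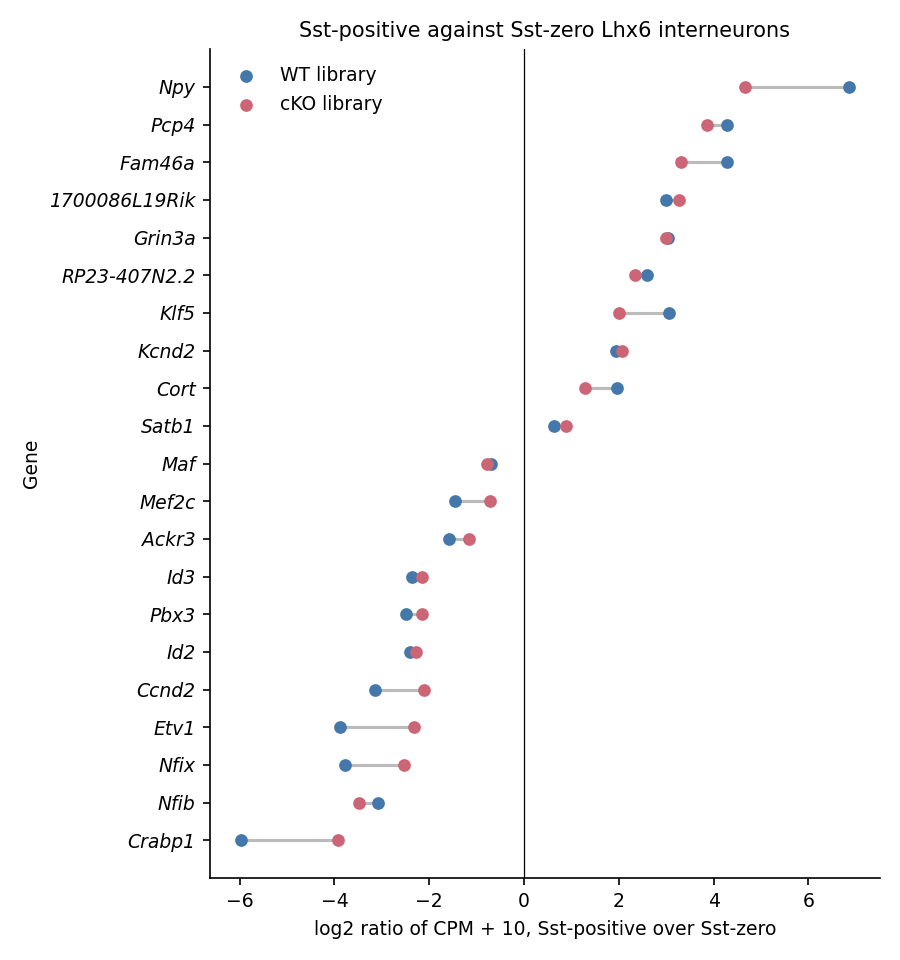
Log2 ratio of CPM + 10 in Sst-positive over Sst-zero Lhx6 interneurons, with 1 point per library for each gene and a grey line joining them. Npy lies at 6.86 (WT) and 4.66 (cKO) and Crabp1 at -5.98 and -3.92.

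A further group was seen only after the values had been looked at and is a description. At least 2 UMIs of Nkx2-1 and Lhx8 together were found in 28 WT members (21.4%, 14.7 to 29.4) and 15 cKO members (6.61%, 3.75 to 10.7). Lhx8 is a partner of Lhx6 in the subpallium. Most Crabp1 UMIs lay in some of these cells, 366 of 378 in WT and 130 of 155 in cKO. At least 2 Crabp1 UMIs were found in 10 of the 28 WT and 6 of the 15 cKO cells, and a single WT cell held 190. None of the cells with Crabp1 at that level was Sst-positive. The group had 8 Sst-positive WT cells, with 1744 of the 3425 Sst UMIs of all WT members, and 3 Sst-positive cKO cells, with 880 of 2086. The same 8 and 3 cells held 2215 of 5507 and 1662 of 3645 Npy UMIs. As a whole the group stood low in Mef2c, at 245 (WT) and 267 (cKO) CPM against 2226 and 2016 CPM in members with neither gene. Maf stood at 298 and 205 CPM in them and at 733 and 694 CPM in members with neither. Zic1, a subpallial factor, had 24 UMIs in WT members, 11 and 9 of them in a pair of cells, and 2 in cKO members. Of the 11 genes on the subpallial and cholinergic list, 2 had at least 50 UMIs, and Nkx2-1 was more than 2-fold lower in cKO, at 102 and 32.2 CPM, beside 4.94% of all measured genes. The cholinergic genes Chat, Slc18a3 and Slc5a7 were at 0 in members of both libraries. Since Isl1 cells were also a larger share of the WT library, how much subpallial tissue each dissection held cannot be told apart from genotype.

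Within the Lhx6 interneurons, 154 of 4943 genes were at least 2-fold higher in cKO than in WT on CPM + 10 (3.12%) and 244 were lower (4.94%). The split depended on scaling. With TMM factors it was 296 higher and 161 lower, and the median over all genes moved from 0.08 to 0.25 on the log2 scale, a shift of 0.17. Sst, Npy, Chodl, Nos1, Reln, Nr2f1, Sox6, Etv1, Crabp1 and Junb kept their direction under that scaling. Ratios are given as log2 of cKO over WT, beside those of the other kept cells of the same libraries. For any gene, fewer cells that carry it and less of its RNA per cell cannot be told apart from a summed level. Cell numbers are given beside some genes, and for the others this was not resolved.

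Peptide and subtype genes stood mostly lower in cKO. Of the 22 genes on the list, 12 had at least 50 UMIs, 1 of them was at least 2-fold higher and 8 were lower, with a median log2 ratio on CPM + 10 of -1.71 against 0.08 over all genes, where 3.12% were higher and 4.94% lower. The 8 were Npy, Tac1, Nos1, Chodl, Crhbp, Calb1, Calb2 and Penk, and in Crhbp, Tac1 and Penk over 50% of the WT UMIs lay in 1 cell. In other kept cells the median of the list was -0.21. With TMM factors, 7 were lower. When each cell weighed the same, 7 were lower and the median of the list was -1.17. This list, like the others, was chosen with earlier results of these data known, so its counts are a description.

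Sst (ENSMUSG00000004366, chr16:23889573-23890958, minus strand) stood at 3717 CPM (3594 to 3844) in WT and 1269 CPM (1215 to 1325) in cKO, a log2 ratio of -1.55 (-1.63 to -1.47). In the 32 Sst-positive WT cells it ranged from 369.9 to 34972 CPM with a median of 7999.7 CPM. In the 64 cKO cells it ranged from 129 to 31812 CPM with a median of 1290.2 CPM. The ranges overlapped over most of their length, while the median of the positive cells was lower in cKO and the intervals of the Sst-positive shares overlapped. In other kept cells the log2 ratio of Sst was -1.28. Since Sst counted toward the marker sum that admitted cells, these values are a description. Under a stricter cell filter, which kept 27 WT and 39 cKO members, the ratio on CPM + 10 went from -1.54 to -0.97.

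Npy (ENSMUSG00000029819, chr6:49822710-49829507, plus strand) had 5507 UMIs in 61 WT members and 3645 in 111 cKO members, a log2 ratio of -1.43 (-1.49 to -1.37). In members with at least 2 UMIs, its level ranged from 184 to 56116 CPM in WT with a median of 1472 CPM, and from 109.7 to 52947 CPM in cKO with a median of 775 CPM. A single WT cell held 1544 UMIs, or 28.0% of the total. In other kept cells the ratio was -0.16. The size of the ratio moved with the choice of cells and weights. On CPM + 10 it went from -1.43 to -0.86 when each cell weighed the same and to -0.62 under the stricter cell filter. Without members with 2 Nkx2-1 or Lhx8 UMIs it widened to -1.88. Members with neither gene had 5079 (WT) and 1042 (cKO) CPM. In members with at least 2 UMIs of Nkx2-1 and Lhx8 together, Npy was not lower in cKO, at 9113 and 10580.5 CPM. There, 8 WT and 3 cKO cells held most of its UMIs. After thinning, 41.8% (32.9 to 51.1) of WT and 41.3% (34.5 to 48.3) of cKO members had a Npy UMI, beside 6.17% and 5.56% of projection-type cells.

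Chodl and Nos1 together mark the long-range projecting Sst cells. Chodl (chr16:78930948-78951733) had 118 UMIs in 15 WT members and 5 in 4 cKO members, a log2 ratio of -5.40 (-7.05 to -4.13). Of the 15 WT cells, 14 had at least 2 UMIs of Sst and 14 of Npy. The 28 WT members with at least 2 UMIs of Nkx2-1 and Lhx8 together held 62 of the 118 WT Chodl UMIs. The 15 cKO members of that kind held 0. That group was 21.4% of WT and 6.61% of cKO members. In members with no UMI of Nkx2-1 or Lhx8, Chodl stood at 69.4 (WT) and 2.09 (cKO) CPM. Nos1, neuronal nitric oxide synthase, had 113 UMIs in 16 WT members and 34 in 11 cKO members, a log2 ratio of -2.57 (-3.17 to -2.003). A single WT cell held 54 of the 113, and on CPM + 10 the ratio went from -2.11 to -1.31 when each cell weighed the same. At least 2 UMIs of both Nos1 and Npy were found in 8 of 131 WT and 6 of 227 cKO members. Single Nos1 UMIs do not mark these cells, since after thinning 7.38% of WT and 2.43% of cKO members had one, beside 9.91% and 9.87% of projection-type cells. For Chodl the thinned shares were 8.20% and 0.971%, beside 0.450% and 0.160% of projection-type cells. In other kept cells the ratios were -2.54 for Chodl and 0.22 for Nos1.

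Further subtype genes on the list follow. Calb2, a calcium buffer, had 109 UMIs in 25 WT and 17 in 11 cKO members, a ratio of -3.52 (-4.35 to -2.77), and on CPM + 10 the ratio was -2.66, or -0.91 under the stricter cell filter. After thinning, 16.4% of WT and 3.40% of cKO members had a Calb2 UMI, beside 8.82% and 12.4% of projection-type cells. In microglia it was found in 1 of 54 WT and 2 of 31 cKO cells (1.85% and 6.45%). Whether projection-type cells express Calb2 was not tested, so their share is not a known background. Crhbp had 76 of its 80 WT UMIs in 1 cell, and without the highest cell of each library its ratio on CPM + 10 went from -2.76 to -0.21. Tac1 had 64 of 97 WT UMIs in 1 cell, and the same step took it from -1.998 to -0.86. Cort, a somatostatin-related peptide, was level in the summed counts, with 59.7 CPM (45.0 to 77.7) in WT and 57.8 CPM (46.8 to 70.6) in cKO. A single WT cell held 23 of the 55 WT Cort UMIs. On CPM + 10 the Cort ratio was -0.04. It went to -0.62 under the stricter cell filter and to 0.50 when each cell weighed the same. Cort was found in 11 WT and 37 cKO cells. After thinning it was found in 7.38% (3.43 to 13.5) and 11.2% (7.21 to 16.3) of members, intervals that overlap. In projection-type cells the thinned shares were 0.585% and 0.440%. Reln, a secreted matrix protein of cortical Sst and other interneurons, was the list's higher gene, at 13.0 CPM (6.73 to 22.7) in 9 WT cells and 73.0 CPM (60.5 to 87.3) in 40 cKO cells. At least 2 Reln UMIs were found in 2 WT and 21 cKO members, 15 of the latter Sst-positive. Under the stricter cell filter the Reln ratio on CPM + 10 went from 1.85 to 0.05. After thinning, 3.28% of WT and 7.28% of cKO members had a Reln UMI, beside 1.71% and 1.04% of projection-type cells.

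**Figure D4:**
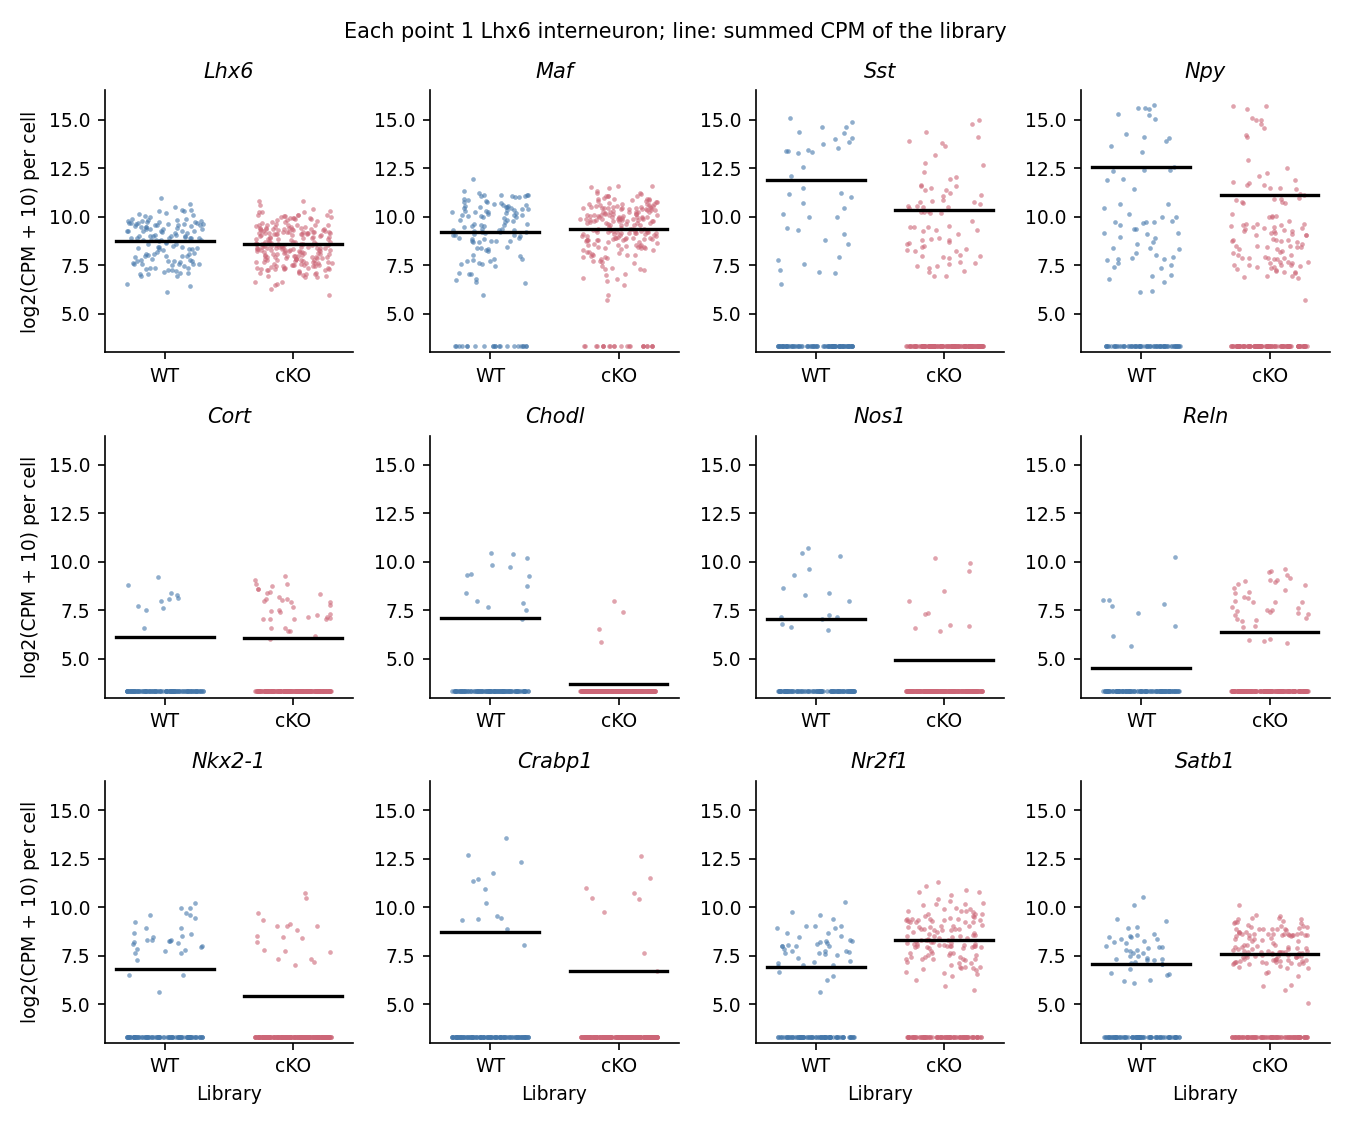
Level of 12 genes in single Lhx6 interneurons as log2(CPM + 10), 131 WT and 227 cKO points per gene, where the lowest row of points are cells with 0 UMIs and the line is the level of the summed library. Nr2f1 is found in 44 WT and 129 cKO cells, Chodl in 15 and 4, Crabp1 in 14 and 9.

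Among the transcription factors of the MGE lineage, 1 of the 11 described here was at least 2-fold higher in cKO (Npas3) and 4 were lower (Sox6, Etv1, Bcl11a, Tshz2), beside 3.12% higher and 4.94% lower over all measured genes. In members with no UMI of Nkx2-1 or Lhx8, Tshz2 stood closer, at 18.6 (WT) and 11.1 (cKO) CPM. In those members Sox6 stood at 120 and 55.6 CPM, Etv1 at 62.7 and 15.3 CPM, and Bcl11a at 369 and 188 CPM. On CPM + 10, only Etv1 of the 4 lower genes stayed past 2-fold in those members. The median log2 ratio of the 11 was -0.12 on total UMIs and 0.06 with TMM factors, where 3 were lower. Maf, which chose the cells, stood at 581 and 641 CPM. Npas3 had 32 and 164 UMIs, a ratio of 1.52 (0.97 to 2.12), beside -0.18 in other kept cells. Satb1 stood at 126 and 184 CPM. Sox6 stood at 159.5 CPM (135 to 188) and 57.2 CPM (46.2 to 70.0), a ratio of -1.48 in the interneurons and -1.64 in other kept cells. Etv1 and Bcl11a were likewise lower in both, at -1.57 and -1.07 in the interneurons and -1.004 and -0.69 outside them. All 3 genes were thus lower in cKO both inside and outside the interneurons. Under the stricter cell filter the Etv1 ratio turned to 0.12.

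The COUP-TF genes, which are CGE markers that also mark caudal MGE cells, were higher in cKO. Nr2f1 stood at 109 CPM (88.3 to 132) in 44 WT members and 308 CPM (282 to 336) in 129 cKO members, a ratio of 1.504 (1.19 to 1.83), beside 0.67 in other kept cells. Thinned, 21.3% of WT and 40.8% of cKO members had a Nr2f1 UMI, beside 7.41% and 9.68% of microglia, which should lack it. Nr2f1 was not confined to GABAergic cells. In projection-type cells the thinned shares were 60.3% (WT) and 69.5% (cKO), above those of the members. Nr2f2 had 15 and 76 UMIs. Of 5 measured genes on the CGE list, these 2 were higher in cKO and Calb2 and Cnr1 lower, beside the same 3.12% and 4.94% over all measured genes. The 4 CGE genes that the rule capped had 26 (28.2 CPM) and 39 (23.7 CPM) UMIs in all, a low sum that the rule fixed in advance. They moved in different directions, with Npas1 at 4 (WT) and 27 (cKO) UMIs, Htr3a at 7 and 1, Prox1 at 12 and 10, and Adarb2 at 3 and 1.

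None of the 5 Dlx genes, which specify GABAergic neurons, passed 2-fold, and their median was -0.16 on total UMIs but 0.02 with TMM factors. Gad2 stood at 275 and 456 CPM and Gad1 at 291 and 232 CPM, both used by the rule. Of the 2 measured genes of GABA transport and breakdown described here, Slc32a1 stayed within 2-fold, and Abat, which breaks down GABA, was lower, with 53 and 26 UMIs. The counts of the Dlx and GABA lists stand beside 3.12% higher and 4.94% lower over all measured genes.

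Of 12 measured migration and guidance genes, 0 were higher and 2 lower, Robo2 (98 and 75 UMIs) and Epha4 (180 and 95 UMIs), beside 3.12% higher and 4.94% lower over all measured genes, to which the counts of the next lists also compare. Cxcr4, the receptor that signals Cxcl12, stood at 33.6 and 38.9 CPM, and Ackr3 at 123 and 160.0 CPM. The neuregulin receptor gene Erbb4 stood at 141 and 77.3 CPM. Of 18 receptor subunit genes, 1 was higher, Gria3, with 17 and 79 UMIs. None of 13 ion channel genes passed 2-fold in either direction, and of 14 synapse genes Lrrtm1 was higher and Gphn, the scaffold of inhibitory synapses, was lower. With TMM factors 1 migration gene and 0 synapse genes were lower, and the median of the synapse list turned from -0.08 to 0.09. When each cell weighed the same, 2 synapse genes were lower and the median of that list was -0.34. The median of the receptor list was 0.09, and -0.13 when each cell weighed the same.

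Genes of the deleted pathway were near the limit of this depth. Of 11 STING pathway genes, 1 had at least 50 UMIs, the NF-κB inhibitor Nfkbia, with 32.6 and 49.3 CPM and a ratio of 0.60 (-0.02 to 1.25). Mb21d1 (cGAS) and Ifnb1 had 0 UMIs in both. The 9 genes the study compared by name had 2 with at least 50 UMIs, and neither passed 2-fold. The study compared genes in embryonic cortex, or in the progenitor and neuron clusters of newborn cortex, and not in Lhx6 interneurons. These values are therefore no check of its results.

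**Figure D5:**
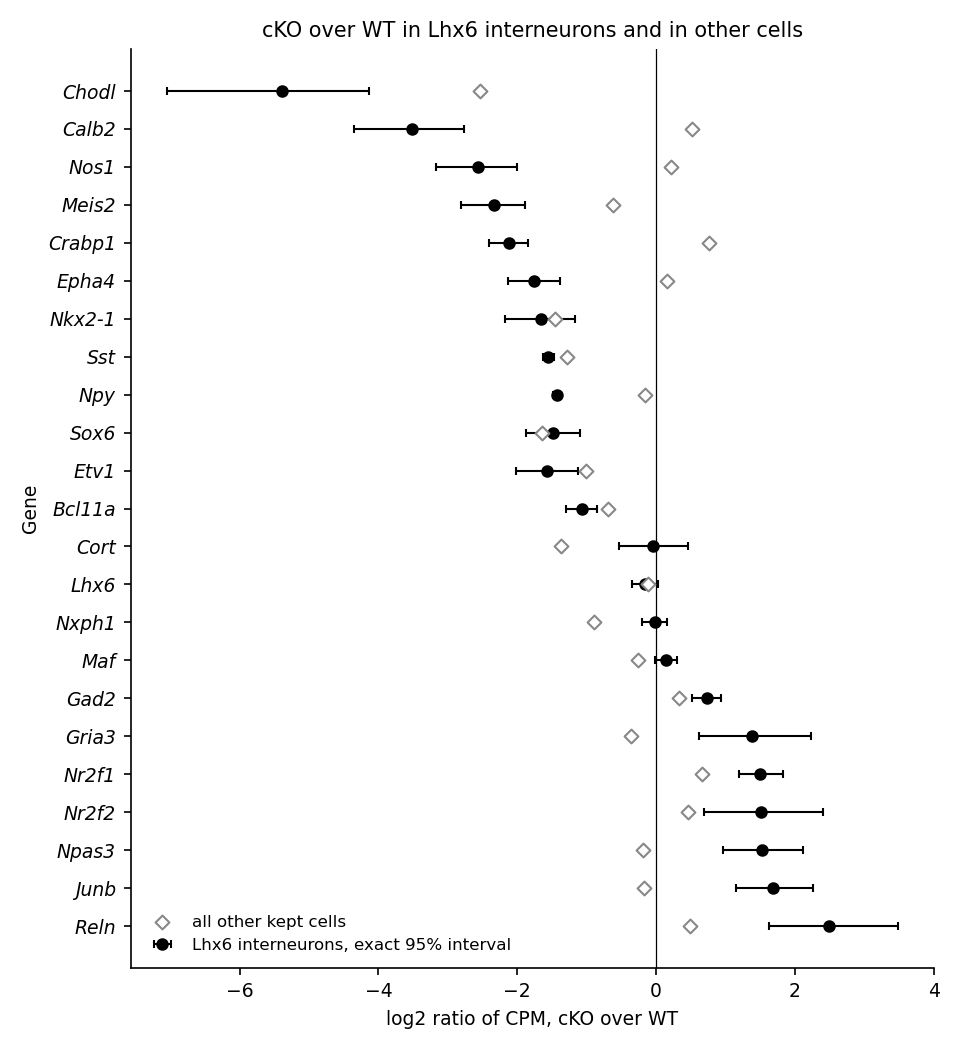
Log2 ratio of CPM, cKO over WT, for named genes in Lhx6 interneurons (black points, exact 95% intervals of counting error) and in all other kept cells (open diamonds). Chodl lies at -5.40, Nr2f1 at 1.504 and Reln at 2.49 in the interneurons, while Sox6 lies at -1.48 there and -1.64 in other cells.

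Many of the widest differences lay in few cells, or had the same direction in the libraries at large. Of the 10 lowest genes in cKO, Fabp7, Mfge8 and Slc1a3 are glial, and without 3 WT members with at least 5 glial UMIs and 1 cKO member with microglial UMIs their ratios on CPM + 10 went from -3.85, -2.54 and -2.28 to -0.49, -0.13 and -0.39. Of the 10 highest, C1qb and C1qc are microglial, and their 83 and 75 cKO UMIs lay in 1 cell, with 0 in WT members. The summed glial markers stood at 498 CPM in WT and 23.7 CPM in cKO, and the microglial markers at 1.09 and 139 CPM. Striatal markers stood at 406 and 106 CPM, with Meis2 lower among the 2 measured genes, and projection neuron markers at 60.8 and 39.5 CPM. Of the Cajal-Retzius markers, only Reln was measured. Endothelial and mural markers had 8 and 6 UMIs and haemoglobin genes 16 and 19.

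Gm8730, Fam136a, Coa3, Dynll1, Trit1, Ttll3, Gm26917, Arrdc4, 1700124L16Rik and Clock, also in that set, differed in the same direction in other kept cells, by log2 ratios of 0.93 (Clock) or more in size. Gm8730, annotated beside near-identical copies that include the ribosomal protein gene Rplp0, had a log2 ratio of 4.64 in the interneurons and 4.61 in other kept cells. Dynll1 shares sequence with 148 genes, 69 of them with at least 10 UMIs here, and Ttll3 with Arpc4 (100% over 283 bases). Fam136a, 1700124L16Rik and Etv1 share sequence with genes that had fewer than 10 UMIs. Reads of such copies can be split by the counting, so these values are uncertain. Fam136a had -4.18 and -3.61, Coa3 -2.72 and -2.25, and Dynll1 -2.41 and -2.06.

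Among immediate early and stress genes, 1 of 6 measured passed 2-fold. Junb had 34 UMIs in 25 WT members and 195 in 71 cKO members, a ratio of 1.68 (1.15 to 2.26), beside -0.18 in other kept cells. Under the stricter cell filter its ratio on CPM + 10 went from 1.46 to 0.86, below 2-fold. Fos stood at 176 and 217 CPM and Jun at 276 and 308 CPM. In sum the list stood at 748 and 857 CPM. Of 3 measured glucocorticoid and clock response genes, Arrdc4 was higher, at 18.4 and 97.3 CPM, beside a ratio of 2.67 in other kept cells.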

How the data were processed

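Single-cell 3' RNA libraries (10x) of 1 WT and 1 cKO sample were analysed, with groups taken from the sample labels. The deposited UMI counts per gene and barcode were made by the authors with Cell Ranger, whose version is 3.0.1 per the file headers, and the counts are not normalized. The submitters' processing notes name Cell Ranger 2, STAR, Seurat and the mm9 build, and whether counting used strand is not given in the sources used here. Cells with at least 500 genes and at most 10% mitochondrial UMIs were kept, 6766 WT and 6080 cKO, with median depths of 6653 and 7629 UMIs.

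The counts of the members were summed per library and scaled to CPM. Ratios of CPM have exact conditional 95% intervals, levels exact Poisson intervals and shares exact Clopper-Pearson intervals, and differences of shares combine the exact intervals by Newcombe's rule. A gene counted as measured with at least 50 UMIs in the members of either library, or, for contrasts of cells within libraries, in the higher class of each library (30 UMIs for the Sst split). It was called past 2-fold on CPM + 10. Shares of cells with a UMI were also given after thinning to 3000 UMIs. With 1 library per genotype no test was possible. A combined matrix of both libraries and a table of the authors' own fold changes and p-values were not used. Counts for the comparison of cKO with WT were also simulated as Poisson draws at the members' mean levels. The intervals held the true ratio for 96.2% of 4641 unchanged genes. At true folds of 0.25, 0.5, 2 and 4, with 50 genes each, they held it for 98%, 90%, 96% and 92%. Such draws follow the model that the intervals assume. They check the calculation only and do not cover the uneven spread of UMIs among cells.

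Members, and 22 gene lists, were chosen with earlier results of these data known. Genes named were those of the rule and the lists, the 12 most different in each direction from CGE-type cells by the smaller ratio of the 2 libraries, 8 in each direction for the other classes and the Sst split, and the 10 highest and 10 lowest in cKO with intervals that did not overlap. The Nkx2-1 and Lhx8 split, the counts of cells with Chodl, Crabp1, Reln or glial UMIs, and 4 alternatives were added after the values were seen. Some genes that the rule would name are not reported here and were left out of the lists. Doublets were left in. Scrublet's automatic threshold marked 131 WT cells, 2 of them members, and 0 cKO cells, so it did not work in cKO. Positions were matched by gene identifier to GENCODE M21 (GRCm38) for 27645 of 27998 genes, and promoters are from RefSeq. Python 3.11.15, numpy 2.4.6, scipy 1.17.1, scanpy 1.11.5, and TMM from edgeR 4.0.16 as a scaling alternative were used.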

Additional observations from a re-analysis of the deposited data

Results flagged for a closer look

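Some genes stood in opposite directions in the Lhx6 interneurons and in the other kept cells, as log2 ratios of cKO over WT CPM, and the difference was not tested. Nos1 stood at -2.57 in the interneurons and 0.22 in other cells, Calb2 at -3.52 and 0.52, and Epha4, a guidance receptor gene, at -1.76 and 0.15. Part of their WT UMIs lay in the 28 members with at least 2 UMIs of Nkx2-1 and Lhx8 together. These cells held 21 of 113 for Nos1, 63 of 109 for Calb2 and 96 of 180 for Epha4. In members with no UMI of Nkx2-1 or Lhx8, WT and cKO levels were 129 and 18.8 CPM for Nos1. They were 59.3 and 7.65 CPM for Calb2, and 110 and 36.2 CPM for Epha4. In the other direction, Junb stood at 1.68 and -0.18, Npas3 at 1.52 and -0.18, and Gria3 at 1.38 and -0.36. The microglial genes C1qb and C1qc had 0 UMIs in WT members, so against a floor of 3 counts in that library their log2 ratios were at least 3.96 and 3.81, beside -0.27 for each in other cells, and all their cKO UMIs lay in 1 cell.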

How the results depend on the processing

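No paired analysis was possible because each genotype has 1 library. The cause of the moves below was not tested. The share of Lhx6 interneurons among kept cells was 1.62% (WT) and 2.91% (cKO) with at least 1000 genes and at most 5% mitochondrial UMIs, 1.39% and 2.55% (1.16 points apart) with at least 2 Lhx6 UMIs, 1.36% and 2.44% (1.08 points) after thinning to 3000 UMIs, and 1.52% and 3.49% without members with 2 Nkx2-1 or Lhx8 UMIs. Genes 2-fold higher and lower in cKO numbered 296 and 161 with TMM factors and 67 and 43 under the stricter cell filter, 200 and 548 with a minimum of 20 UMIs, 279 and 313 with a pseudocount of 1 CPM, and 170 and 161 without the Nkx2-1 or Lhx8 members. The Sst-positive shares were 20.6% and 19.8% with at least 5 Sst UMIs and 22.1% and 20.4% after thinning, where 14 genes were higher and 21 lower with Sst. Shares of members with a UMI at 1500 UMIs per cell were, in WT and cKO, 30.0% and 29.3% (Npy) and 13.1% and 27.5% (Nr2f1), and without thinning 46.6% and 48.9% (Npy) and 33.6% and 56.8% (Nr2f1). Etv1 turned to 0.12 under the stricter cell filter, where Mef2c went from 0.24 to 1.67, and Mef2c turned to -0.016 without the Nkx2-1 or Lhx8 members, where Crabp1 stood at -0.05. Nr2f1 ranged from 1.22 to 1.65 over its 12 alternatives. Depth limits what can be said of genes with few UMIs, the STING pathway among them.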
